A study of Danio rerio with 28 samples.

Results

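The 6 zebrafish egg coat genes zp2l1, zp3a.2, zp3b, zp2.2, zp2.3 and zp2.5 were followed through 28 libraries of RNA enriched for new transcripts in early embryos. They were chosen by symbol from the count table, as genes whose RNA is made in the oocyte, and all 6 were found among its 32520 genes. The egg coat, called the chorion in fish and the zona pellucida in mammals, is built from secreted glycoproteins that polymerise into filaments through a shared zona pellucida domain. The ZP2 and ZP3 classes of these proteins are made while the egg grows in the ovary and an embryo inherits their transcripts with the egg. Transcripts inherited in this way are called maternal, and they are cleared from the embryo as its own genome becomes active.

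Whole embryos, wild type or mir430-/-, were stripped of the chorion with Pronase and injected with s4UTP, a sulfur-bearing nucleotide that enters RNA as it is transcribed. RNA carrying it was biotinylated and pulled down on beads at 4 stages, 256c, 1024c, Oblong and Sphere. Treatment with IAA (iodoacetamide) followed, which makes the sulfur-bearing bases readable as point changes. The libraries were made with a stranded kit and without selection for poly(A). Per the design text, the study asks what the loss of the major transcription bodies does to genome activation. There were 8 groups with IAA, wild type and mutant at each stage with 3 libraries each, and 4 wild type libraries without IAA, 1 per stage. All embryos received s4UTP, and only the mir430-/- embryos also received miR430, so effects of the deletion, of that injection and of the line itself cannot be told apart. The 3 libraries of a group are called biological replicates, but their clutches are not given, so each p-value rests on the spread among these libraries alone, which may be partly technical. These are bulk samples, in which fewer cells of a type and less RNA per cell cannot be told apart. RNA made in the oocyte precedes the injection of s4UTP and so would carry no label. Whether counts of the egg coat genes come from labelled RNA or from unlabelled RNA kept on the beads was not tested. Their levels below are therefore shares of the pulled-down RNA, not amounts of new or of maternal transcript.

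The IAA libraries held between 4960211 and 13803137 counts, but only 1.22% to 62.6% of these came from nuclear genes, the rest being mitochondrial, which left 160889 to 4118874 nuclear counts. The libraries without IAA held 104079 to 637576 nuclear counts. Among the wild type libraries at Sphere, replicate 1 stood apart with 12.9% nuclear counts against 40.1% and 62.6%. The 54 mir430 genes together had 61 counts over the 3 mutant libraries at 256c against 42970 in wild type, and 9 against 320125 at Sphere. As a check of the labelled tissue, 13 genes switched on early in the zygote were all detected by 1024c, and 10 of the 13 rose in wild type from 256c to Sphere, as did 30.7% of all genes tested. In wild type at 256c, 8 of 12 genes of ovarian follicle cells, 5 of 6 liver genes and 6 of 6 hatching gland entries had 0 counts. These 3 libraries held 160889 to 204534 nuclear counts each, and the share of all genes at 0 in them is not given. Absence of these cell types therefore cannot be told from low depth. Shares are given below as nuclear CPM, meaning counts-per-million of a library's nuclear counts. The 12 follicle cell genes summed to 48.8 to 58.7 nuclear CPM in wild type and 18.9 to 36.7 in the mutant at 256c. Of these, cyp11a1, a steroid synthesis gene, had 18 counts in wild type and 27 in the mutant. In the same order gsdf had 6 and 10, lhcgr 2 and 3, and foxl2b 2 and 1. The other 8 follicle cell genes, cyp19a1a, amh and inha among them, were at 0 in both.

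The 6 genes lie on 3 chromosomes (GRCz11 coordinates, as deposited). The ZP3-class gene zp3b (ENSDARG00000039828) lies on the plus strand at chr2:6253246-6258796. The ZP2-class gene zp2l1 (ENSDARG00000055415) lies on the minus strand at chr9:35631440-35633827. On the plus strand of chromosome 20, the ZP3-class gene zp3a.2 (ENSDARG00000042130) spans chr20:33987465-33989427, 1721 bases beyond the nearest upstream gene. The ZP2-class genes zp2.2 (ENSDARG00000105346), at chr20:54290356-54292173, zp2.3 (ENSDARG00000090237), at chr20:54295213-54297047, and zp2.5 (ENSDARG00000086522), at chr20:54312970-54316972, belong to a tandem array of 5 zp2 genes within 26617 bases. Tandem copies of a gene can share reads, so the split of counts among these 3 is uncertain, and zp2.5 also overlaps 1 other annotated gene.

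Counts of each gene were low. Over all 28 libraries zp3a.2 had 436 counts, zp2.3 had 431, zp2l1 had 386, zp3b had 344, zp2.5 had 187 and zp2.2 had 119. Only zp2.3 was detected in every library, with 1 to 44 counts, zp3a.2 was missing from 1 library, and the other 4 genes from 2 each. The edgeR filter on low counts kept 14732 genes in the fit of the 8 IAA groups, among them 5 of the 6 genes, leaving out zp2.2, which never passed 11 counts. The gene zp2l1 passed only through its mutant libraries, since no wild type library held more than 8 of its counts while 10 of 12 mutant libraries held 10 or more. For zp2.5, 10 or more counts were held by 6 of 12 mutant and 2 of 12 wild type libraries. Its place in the fit thus also rests mainly on the mutant.

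Summed over the 6 genes, the egg coat transcripts took a smaller share of the nuclear counts at Sphere than at 256c, while their share of all counts was not smaller in wild type. In wild type the share was 166, 205 and 79.2 nuclear CPM in replicates 1, 2 and 3 at 256c, and 68.5, 14.6 and 13.0 at Sphere. The mutant started at 457, 161 and 180 nuclear CPM and ended at 24.4, 13.7 and 36.2. Every 256c library lay above every Sphere library of its genotype. In between, wild type had 83.6 ± 19.5 nuclear CPM at 1024c and 81.5 ± 56.9 at Oblong, and the mutant 227 ± 114 and 72.4 ± 21.0 (SD, n = 3). The wild type libraries without IAA held 211, 245, 68.5 and 40.8 nuclear CPM in stage order, with exact binomial 95% intervals of 132 to 320, 172 to 339, 31.3 to 130.1 and 26.6 to 59.8, which cover counting error only. These single libraries lay above the mean of the IAA group at 3 of the 4 stages, all but Oblong. They also differed from those groups in make-up. Their early zygotic genes summed to 423, 1340, 23071.5 and 19097 nuclear CPM in stage order. The wild type IAA groups had means of 8648, 32414, 28805 and 24435. The egg coat shares without IAA therefore cannot be set directly against those with IAA, least of all at 256c and 1024c. The egg coat sums were not tested, and the test of IAA for each gene is given below.

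**Figure D1:**
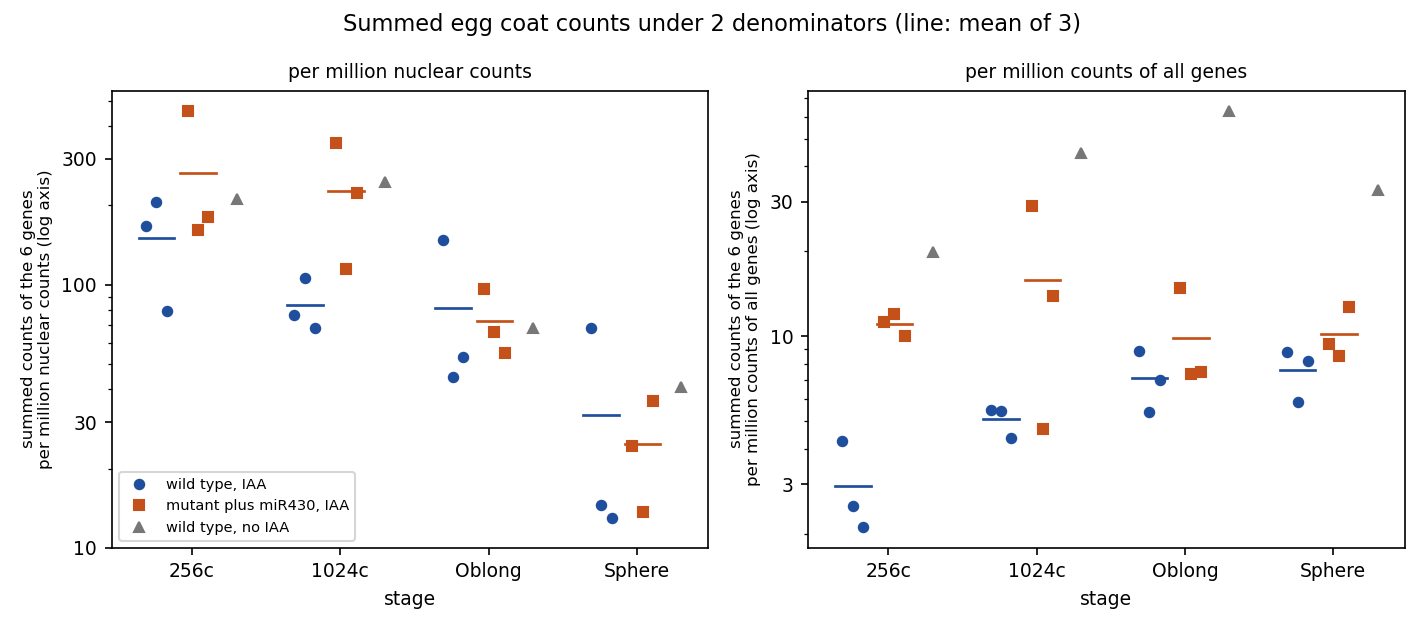
Summed counts of the 6 egg coat genes as nuclear CPM (left) and as CPM of all counts (right), on log axes, in each library by stage; lines are means of 3 libraries. The nuclear share has a mean of 150.2 at 256c and 32.0 at Sphere in wild type, while the share of all counts is 2.96 at 256c and 7.61 at Sphere.

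The share of all counts, mitochondrial ones included, moved the other way in wild type. Its mean was 2.96, 5.11, 7.10 and 7.61 CPM of all counts in stage order. In the mutant it was 11.1, 15.9, 9.86 and 10.2 CPM, with no steady direction. Raw sums were 80 counts over the 3 wild type libraries at 256c and 174 at Sphere, against 324 and 218 in the mutant. The nuclear counts of these libraries rose over the same stages, and the fold changes below are relative to other genes of the library, not amounts per embryo.

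Per length, the order of the 6 genes within a group lay mostly within the spread of its libraries. Levels here are nuclear CPM per kb of exon, as means of 3 libraries. In wild type at 256c the order was zp2.3 with 38.1, zp3a.2 with 27.4, zp2.5 with 14.5, zp2.2 with 11.1, zp2l1 with 10.2 and zp3b with 4.61. At Sphere it was zp3a.2 with 6.69, zp3b with 6.35, zp2.3 with 4.24, zp2.5 with 1.94, zp2.2 with 1.28 and zp2l1 with 0.327. The mutant at 256c was led by zp2l1 with 55.7, followed by zp2.3 with 47.3, zp3a.2 with 41.6, zp2.5 with 24.7, zp2.2 with 12 and zp3b with 3.27. The mutant at Sphere was led by zp3b with 5.45, and the other 5 lay between 1.28 and 2.76. Of 40 pairs of neighbours in the level orders of the 8 IAA groups, 37 overlapped between libraries. The 3 that did not were zp2.3 above zp3b at Oblong in wild type and in the mutant, and zp2.2 above zp3b in the mutant at 256c.

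**Figure D2:**
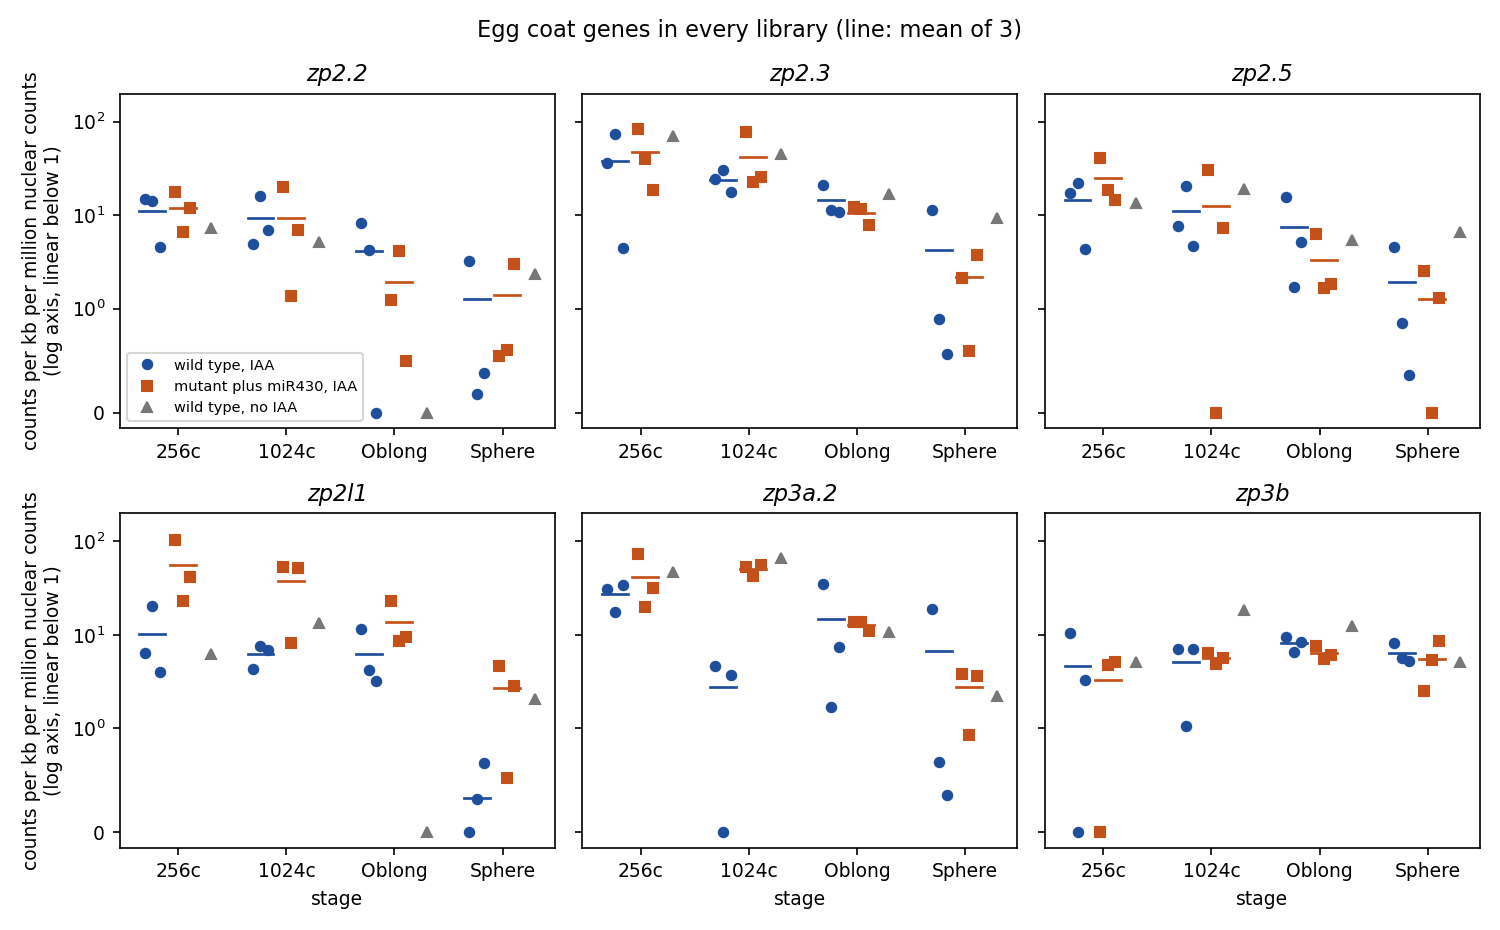
Level of each gene in every library, as nuclear CPM per kb, by stage; the axis is logarithmic above 1 and linear below, and lines are means of 3 libraries. For zp2l1, mutant libraries lie above wild type ones at 256c, with means of 55.7 and 10.2, and zp3b stays between means of 3.27 and 8.12 in all 8 IAA groups.

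The change over the whole period was tested within each genotype, comparing Sphere with 256c. In wild type, zp2.3 and zp2l1 were lower at Sphere, and no gene was higher. For zp2.3 the counts were 10, 16 and 1 at 256c and 14, 5 and 3 at Sphere. As a share, these were 48.9, 99.4 and 6.09 nuclear CPM falling to 15.2, 1.21 and 0.765. Replicate 3 at 256c lay below replicate 1 at Sphere, so the groups overlapped. The fitted log2 fold change was -2.57 (SE 0.77, edgeR quasi-likelihood test with Benjamini-Hochberg adjustment, adjusted p = 0.0107). The adjusted p was above 0.05 without wild type 256c replicate 2 (0.116), Sphere replicate 2 (0.0620) or Sphere replicate 3 (0.106).

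For zp2l1, wild type held 2, 5 and 1 counts at 256c and 0, 2 and 4 at Sphere, and the shares were 9.78, 31.1 and 6.09 against 0, 0.486 and 1.02 nuclear CPM. The groups did not overlap on this scale, but the raw counts did. At 256c 3 counts, the limit that a count of 0 allows, came to 14.7, 18.6 and 18.3 nuclear CPM. The shares in replicates 1 and 3 lay under that limit. The log2 fold change was -2.96 (SE 1.04, edgeR adjusted p = 0.0244), and it missed the threshold without 256c replicate 2 (0.203), Sphere replicate 1 (0.0506) or Sphere replicate 2 (0.0749), and with RLE scaling (0.0554). The other 3 tested genes did not pass, with log2 fold changes of -2.14 for zp2.5 (adjusted p = 0.0939), -1.64 for zp3a.2 (0.142) and 1.62 for zp3b (0.129). Without wild type Sphere replicate 1, whose 25 counts of zp3a.2 stood against 4 and 2 in the other replicates, the log2 fold change of zp3a.2 was -3.93 (edgeR adjusted p = 0.00218). All 6 genes passed the filter in that fit, and 3 of them, zp2.3, zp3a.2 and zp2.2, were lower. The share of all genes that were lower in that fit is not given. With no library left out, zp2.2 was tested in 2 alternatives and did not pass. Without mitochondrial genes it changed by -2.22 in wild type (edgeR adjusted p = 0.0999) and -2.19 in the mutant (0.0603). In DESeq2 the changes were -2.07 (adjusted p = 0.121) and -1.72 (0.139). In the fit with all libraries, 47.0% of all genes tested passed, 4527 higher and 2393 lower, so that 16.2% were lower against 2 of these 5 genes. With RLE scaling the split was 5541 higher and 1535 lower.

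The mutant showed a fall in 4 of the 5 tested genes, while of all genes tested 49.2% passed and 22.4% were lower. Over all genes the split was 3941 higher and 3307 lower, and with RLE scaling 5329 and 2376. The ZP2-class gene zp2.3 had 29, 31 and 16 counts at 256c and 8, 3 and 14 at Sphere, or 112, 54.2 and 25.2 against 2.87, 0.804 and 5.12 nuclear CPM. These groups did not overlap, and the log2 fold change was -3.48 (SE 0.75, edgeR adjusted p = 0.00153). For zp2l1, 41, 20 and 40 counts at 256c stood against 20, 3 and 12 at Sphere, with a fitted change of -3.43 (SE 0.81, edgeR adjusted p = 0.00234). The counts of zp3a.2 were 27, 16 and 29 at 256c and 15, 5 and 14 at Sphere, with a fitted change of -3.0 (SE 0.91, edgeR adjusted p = 0.00995), which missed the threshold without mutant Sphere replicate 2 (0.0542). The last of the 4, zp2.5, held 15, 15 and 13 counts at 256c and 10, 0 and 5 at Sphere (log2 fold change -3.29, SE 0.99, adjusted p = 0.00926).

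The ZP3-class gene zp3b was not lower at Sphere in either genotype. Its counts in wild type were 4, 0 and 1 at 256c, then 6, 1 and 10, then 8, 15 and 19, and at Sphere 14, 43 and 38. In the mutant they were 0, 5 and 6, then 5, 5 and 9, then 17, 13 and 17, and at Sphere 13, 37 and 43. The raw counts at Sphere were above those at 256c in every library of both genotypes, whereas the share of nuclear counts, 8.55 ± 10 nuclear CPM at 256c and 11.8 ± 3.0 at Sphere in wild type (SD, n = 3), overlapped. The fitted change from 256c to Sphere was 1.62 in wild type (SE 0.90, edgeR adjusted p = 0.129) and 1.24 in the mutant (SE 0.80, adjusted p = 0.195), and DESeq2 called both, with 2.25 (adjusted p = 0.0435) and 1.89 (adjusted p = 0.0470). Whether its course differed from that of the other 5 genes was not tested.

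As a part of the summed counts of the 6 genes, zp3b took 6.49% ± 5.97, 12.7% ± 9.49, 22.8% ± 9.47 and 56.1% ± 29.4 in wild type in stage order (SD, n = 3). The mutant had 3.57% ± 3.09, 5.32% ± 2.24, 16.7% ± 3.10 and 45.0% ± 26.8 (SD, n = 3). At Sphere the libraries split, with 71.7% and 74.5% in wild type replicates 2 and 3 against 22.2% in replicate 1, and 72.5% in mutant replicate 2 against 43.4% in replicate 3 and 19.1% in replicate 1. The 2 wild type libraries with the larger shares had 40.1% and 62.6% nuclear counts and replicate 1 had 12.9%. The mutant ones had 62.3% in replicate 2, 35.0% in replicate 3 and 38.5% in replicate 1. The part of this depth difference in the zp3b share was not tested.

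**Figure D3:**
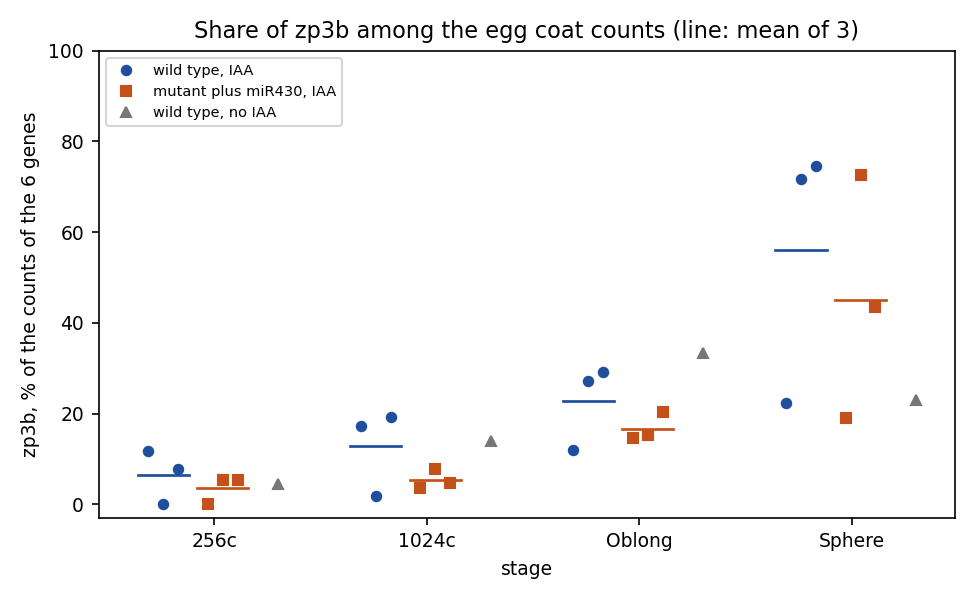
Share of zp3b in the summed counts of the 6 egg coat genes, in percent, in each library by stage; lines are means of 3 libraries. Means are 6.49% at 256c and 56.1% at Sphere in wild type and 3.57% and 45.0% in the mutant, with Sphere libraries spread between 19.1% and 74.5%.

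No single step between neighbouring stages was called for any of the 5 tested genes in either genotype. Of all genes, 3.35% passed between 256c and 1024c in wild type and 0% at each later step, as at all 3 steps in the mutant. At an unadjusted p under 0.05, 1 gene passed between 256c and 1024c in wild type (zp3a.2, -2.44), 0 between 1024c and Oblong, and 2 between Oblong and Sphere (zp2l1, -2.73, and zp2.3, -1.78). In the mutant these numbers were 0, 2 (zp3a.2, -1.81, and zp2.3, -1.61) and 3 (zp2l1, -1.94, zp3a.2, -1.83, and zp2.3, -1.94). Of all genes, 14.8%, 5.5% and 14% at these 3 steps had an unadjusted p under 0.05 in wild type and 5.89%, 9.52% and 16.4% in the mutant. DESeq2 called 0 at each step. Without wild type Sphere replicate 1, edgeR called zp3a.2 and zp2.3 lower between Oblong and Sphere (-3.26, adjusted p = 0.0285, and -3.10, adjusted p = 0.0191). The 0% of all genes at this step belongs to the fit with all libraries. The share of all genes called without that library is not given, so these 2 calls cannot be set against it.

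Whether the fall differed between genotypes was tested as an interaction. None of the 5 tested genes passed in edgeR (0.0136% of all genes did), 0 had an unadjusted p under 0.05 (13.7% of all genes did), and DESeq2 called 0. The extra change in the mutant was -0.91 for zp2.3 (95% interval -2.96 to 1.14), -1.15 for zp2.5 (-3.98 to 1.68), -1.36 for zp3a.2 (-3.86 to 1.14), -0.47 for zp2l1 (-3.89 to 2.95) and -0.39 for zp3b (-2.78 to 2.01).

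The size of the falls depended on what the counts were scaled to. Of the called falls, that of zp2.3 in wild type turned with total count scaling, as did the wild type changes of zp3a.2 and zp2.5, which had not passed. The median of all tested genes moved by 0.75 in wild type and 0.57 in the mutant from 256c to Sphere with TMM scaling, by 1.32 and 1.19 with RLE scaling, and by 3.50 and 2.85 when libraries were scaled to their total counts. Relative to that median, zp2.3 lay at -3.32, -3.46 and -3.39 in wild type and at -4.04, -4.0 and -4.09 in the mutant under these 3 scalings. It lay at -2.53 and -3.38 with mitochondrial genes left out, and at -2.30 and -3.48 in DESeq2. The medians of these 2 fits are over other sets of genes, 13168 and 29481 against 14732. Their distances therefore cannot be set directly against the first 3. Relative to the median of the 14732 genes, zp2l1 lay at -3.71, -3.71 and -3.55 in wild type under the first 3 scalings and zp3b at 0.87, 0.89 and 0.74. Without subtracting the median, total count scaling turned zp2.3 to 0.10 (edgeR adjusted p = 0.929) and gave -0.06 for zp2l1 (0.969) in wild type, and it called zp3b higher, with 4.23 there (0.000466) and 3.50 in the mutant (0.00185). The wild type changes of zp3a.2 and zp2.5 went from -1.64 to 0.66 and from -2.14 to 0.46. The 4 falls in the mutant stayed below 0 with that scaling, at -1.24 for zp2.3, -1.11 for zp2.5, -1.05 for zp2l1 and -0.60 for zp3a.2, and none passed.

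**Figure D4:**
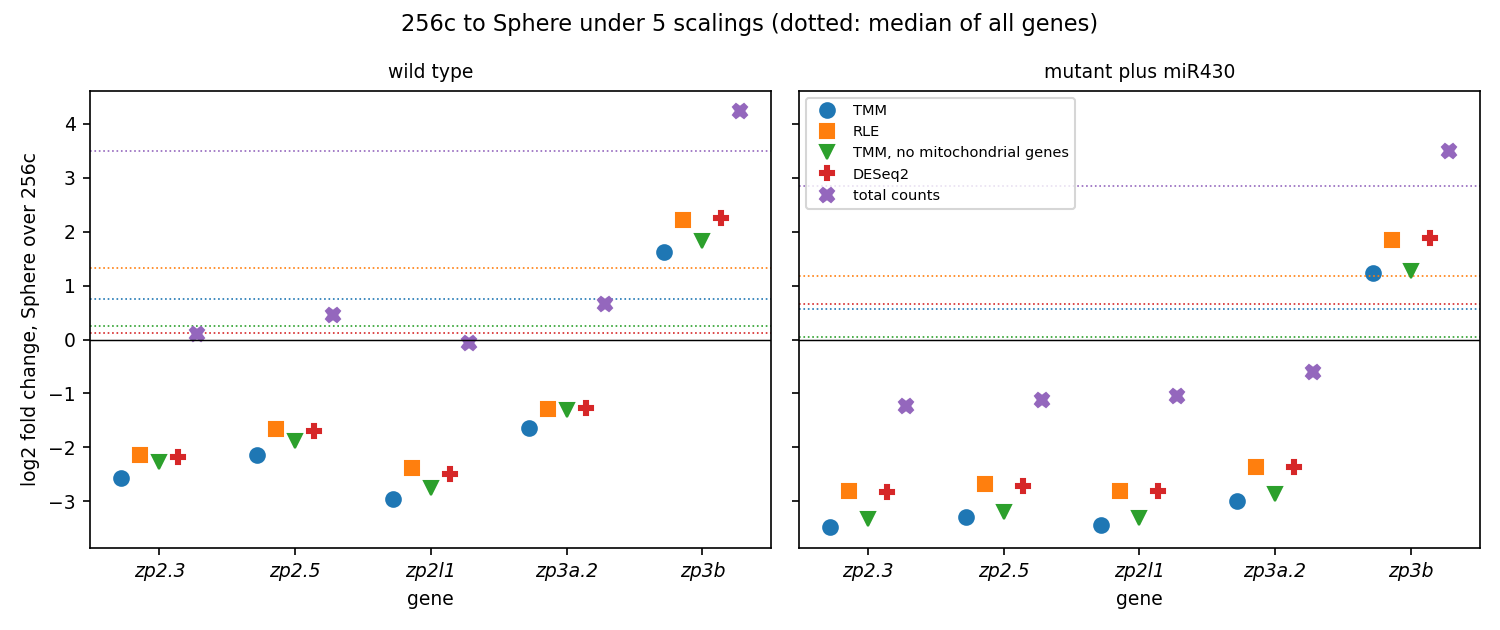
Log2 fold change from 256c to Sphere of the 5 tested genes in wild type (left) and mutant (right) under 5 scalings; dotted lines mark the median of all genes under each. Total count scaling lifts every point, taking zp2.3 from -2.57 to 0.10 in wild type, together with the median, which goes from 0.75 to 3.50.

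Mutant and wild type were then compared at each stage. At 256c zp2l1 was higher in the mutant and was the only 1 of the 5 tested genes that passed, while of all genes 9.48% passed and 6.61% were higher. Its counts were 41, 20 and 40 in the mutant against 2, 5 and 1 in wild type, and its shares 159, 35.0 and 63.1 against 9.78, 31.1 and 6.09 nuclear CPM. All mutant libraries lay above all wild type ones, the lowest of the former close to the highest of the latter. The log2 fold change was 2.92 (SE 0.88, edgeR adjusted p = 0.0358). Since zp2l1 passed the filter only through the group where it was high, that p is conditioned on the difference; in the fit without a filter on low counts, which keeps the gene whatever its counts, the change was 3.14 (edgeR adjusted p = 0.00725). The call was lost without any 1 of 5 of the 6 libraries, with adjusted p of 0.161, 0.0513 and 0.139 without wild type replicate 1, 2 or 3, and 0.0921 and 0.0958 without mutant replicate 1 or 3. Other measures moved with genotype at this stage. The nuclear part of the counts was 2.46%, 7.46% and 5.59% in the mutant and 2.56%, 1.22% and 2.67% in wild type. Of 7 tested markers of the enveloping layer, a thin epithelium that covers the embryo, 6 were higher in the mutant, and the 8 such genes summed to 573 to 4713 nuclear CPM there and 118 to 378 in wild type. Of the 13 early zygotic genes 6 were higher in the mutant. The part of these differences in the zp2l1 result was not tested.

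At the later stages zp2l1 did not pass. At 1024c it had 34, 7 and 68 counts in the mutant against 3, 6 and 8, with a fitted change of 2.46 (SE 0.82, edgeR adjusted p = 0.0923). At Oblong, 43, 17 and 22 counts stood against 8, 8 and 6 (1.65, SE 0.79, adjusted p = 0.352), and at Sphere 20, 3 and 12 against 0, 2 and 4 (2.45, SE 0.90, adjusted p = 0.252). As nuclear CPM, the mutant libraries lay above the wild type ones at 1024c, and the groups overlapped at Oblong and Sphere.

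At 1024c zp3a.2 was the only called gene of the 5, while of all genes 3.39% passed and 1.83% were higher. The mutant held 32, 34 and 68 counts and wild type 3, 0 and 4, or 76.4, 61.0 and 78.9 against 6.57, 0 and 5.26 nuclear CPM, with no overlap. The log2 fold change was 4.11 (SE 1.03, edgeR adjusted p = 0.0232). It missed the threshold without wild type replicate 1 (0.112), wild type replicate 2 (0.128) or mutant replicate 3 (0.0619). The wild type libraries at 1024c were low for this gene beside the stages around them, with 9, 4 and 8 counts at 256c and 23, 3 and 13 at Oblong, and the single wild type library without IAA had 14 counts at 1024c. In the mutant at the other stages zp3a.2 had 27, 16 and 29 counts at 256c (log2 fold change 1.03, adjusted p = 0.550), 24, 25 and 24 at Oblong (0.55, adjusted p = 0.809) and 15, 5 and 14 at Sphere (-0.33, adjusted p = 0.996).

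The tandem ZP2 genes and zp3b showed no genotype difference that passed. At 256c zp2.3 had 29, 31 and 16 counts in the mutant against 10, 16 and 1 (log2 fold change 0.72, 95% interval -0.68 to 2.13, adjusted p = 0.611). For zp2.5, 15, 15 and 13 stood against 5, 5 and 1 (1.2, -0.75 to 3.15, adjusted p = 0.517). The gene zp2.2, left out of the main fit, had 6, 5 and 10 counts in the mutant and 4, 3 and 1 in wild type. It did not pass with mitochondrial genes left out (0.83, edgeR adjusted p = 0.680) or in DESeq2 (0.73, adjusted p = 0.744). Over the later stages, the log2 fold changes of zp2.3, zp2.5 and zp3b lay between -0.55 and 0.67, and none passed. At Oblong, where 1.7% of all genes passed, and at Sphere, where 1.1% did, edgeR called 0 of the 5 genes and DESeq2 called 0. At each of these stages 1 gene (zp2l1) had an unadjusted p under 0.05, as did 13.6% of all genes at Oblong and 10.4% at Sphere.

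**Figure D5:**
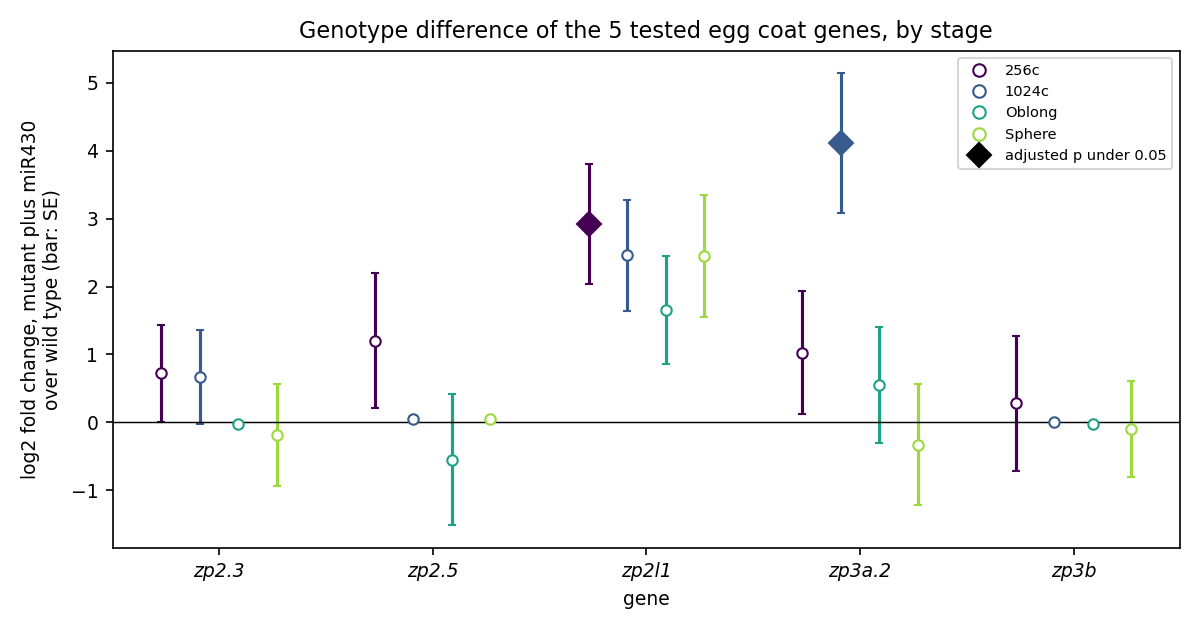
Log2 fold change of mutant plus miR430 over wild type for the 5 tested genes at each stage; bars are standard errors, not drawn for changes under 0.1, and filled diamonds have an adjusted p under 0.05. The 2 diamonds are zp2l1 at 256c (2.92) and zp3a.2 at 1024c (4.11), and zp2l1 lies above 1.6 at all 4 stages.

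Averaged over the 4 stages, a contrast added after the stage values were seen, zp2l1 was higher in the mutant by 2.37 (SE 0.43, edgeR adjusted p = 0.000185) and zp3a.2 by 1.34 (SE 0.46, adjusted p = 0.0334), while 25.4% of all genes passed. As zp2l1 passed the filter only through its mutant libraries and the contrast was chosen with its stage values known, its average is a description. Leaving out 1 library lost the call of zp3a.2 in 12 of 24 cases, with adjusted p up to 0.0640. The averages of zp2.3 (0.29), zp2.5 (0.19) and zp3b (0.04) did not pass. In total, zp2l1 had 327 counts in the 12 mutant libraries and 53 in the 12 wild type ones, and zp3a.2 had 313 and 98, against 170 and 159 for zp3b.

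The authors' deposited table gives its own comparison of the same groups. In the authors' deposited table, zp3a.2 at 1024c was the only member marked as changed, up-regulated with a log2 fold change of 2.92 and an adjusted p of 0.00212. In the authors' deposited table, zp2l1 at 256c had a log2 fold change of 2.37 and an adjusted p of 0.0123 and was marked not DE. DESeq2 run here gave 4.08 for zp3a.2 at 1024c (adjusted p = 0.00210) and 2.97 for zp2l1 at 256c (adjusted p = 0.0121). The deposited fold changes were thus smaller at similar adjusted p. Their settings are not given, so the sizes cannot be set directly against those above.

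The effect of IAA was tested in wild type over 16 libraries with stage as a covariate, where 4 of the 6 genes passed the filter on low counts, all but zp2.2 and zp2l1. Every library without IAA was replicate 4 of its stage. These held 9.41% to 91.5% nuclear counts, against 1.22% to 62.6% in wild type with IAA. Their share of early zygotic genes was also far smaller at 256c and 1024c, as given above. Effects of IAA, of the replicate and of library depth and make-up therefore cannot be told apart here. None differed in edgeR (0.0326% of the 12267 genes tested did), 0 had an unadjusted p under 0.05 (15.5% of all genes did), and in DESeq2 only zp2.3 received an adjusted p (0.549). Without IAA against with IAA, the log2 fold change was 0.92 for zp3a.2 (95% interval -0.72 to 2.56), 0.47 for zp2.3 (-0.62 to 1.57), 0.37 for zp2.5 (-0.85 to 1.58) and -0.14 for zp3b (-1.48 to 1.2), where the median of all genes was -0.36. Counts without IAA were 10, 9, 3 and 8 for zp2.3 and 7, 14, 2 and 2 for zp3a.2 in stage order. For zp3b they were 1, 5, 3 and 6, and for zp2l1 1, 3, 0 and 2. Scaled to total counts, of which the libraries without IAA had 143490 to 1105928, all 4 tested genes were called higher without IAA, zp3b by 2.61 (adjusted p = 0.00307), and the median of all genes was 2.16.

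Other genes of the egg coat were read beside these 6. Of 18 further zona pellucida genes in the table, 10 passed the filter. From 256c to Sphere 6 of the 10 were lower in wild type and 7 in the mutant, and 0 were higher in either, with median log2 fold changes of -2.43 and -2.96, while 16.2% and 22.4% of all genes tested were lower. Among them was zp3f.1, another ZP3-class gene, with a change of -3.83 (SE 1.1, edgeR adjusted p = 0.00825) in wild type and -3.91 (SE 1.09, adjusted p = 0.00624) in the mutant. For zp3c the change was -3.42 in the mutant (SE 0.71, adjusted p = 0.00126), and in wild type it did not pass (-1.53, adjusted p = 0.0737). As with zp3b, the raw counts of zp3e were higher late, 6 in all at 256c and 91 at Sphere in wild type, and 14 and 124 in the mutant. The nuclear counts of these libraries rose over the same stages. The fitted changes of zp3e did not pass, with 1.27 in wild type (edgeR adjusted p = 0.151) and 1.23 in the mutant (0.122). Over the mean of the 4 stages 3 of the 10 were higher in the mutant, as were 2356 of all 14732 genes: zp3 (0.99, SE 0.33, adjusted p = 0.0295) and the 2 entries named zp3.2 (1.52 and 0.87). On chromosome 17, 1 zp3.2 entry (2569521-2596125) spans both zp3 and the other zp3.2 entry on the same strand. These 3 are therefore not separate loci, here or among the 10. Raw counts of zpcx, another of the 10, were lower in the mutant at the earlier stages. In stage order it had 23, 17, 35 and 14 counts in wild type and 1, 7, 19 and 18 in the mutant. How many of the 10 were lower over the mean of the 4 stages is not given.

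A wider list, chosen as genes of the oocyte and early egg, had 41 members in the table, of which 31 were tested. In wild type from 256c to Sphere 15 fell and 6 rose, with a median log2 fold change of -2.13, and in the mutant 17 fell and 4 rose, with a median of -3.16. Of all genes tested, 16.2% fell and 30.7% rose in wild type, and 22.4% and 26.8% in the mutant. The largest called changes in wild type were those of stm, a gene of otolith formation (13.41, SE 1.99), ybx1, an RNA-binding protein (5.0, SE 0.82), tuba8l4, a tubulin (4.67, SE 0.92), and nanog, a transcription factor of genome activation (3.93, SE 0.91), and all 4 were higher at Sphere. Over the wild type libraries stm had 0 counts at 256c and 8722 at Sphere, so the size of its change rests on a count of 0, and no egg RNA of it was seen there. In the mutant they were those of stm (9.28, SE 1.38), higher, and of ca15b (-4.58, SE 0.91), buc, which organises the Balbiani body of the oocyte (-4.23, SE 0.92), and zar1l, a relative of the egg factor zar1 (-4.23, SE 0.79), all lower. The gene figla, chosen here after its values were seen, encodes a transcription factor that activates zona pellucida genes in the mouse oocyte, and its changes were -3.86 (SE 0.75, edgeR adjusted p = 0.000586) in wild type and -3.62 (SE 0.73, adjusted p = 0.00108) in the mutant. At 256c, ybx1 was the only one of the 31 that was higher in the mutant and tdrd5 the only one that was lower, where 6.61% of all genes were higher and 2.87% lower.

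Among themselves, over the 24 IAA libraries, the levels of 4 of the 5 tested genes correlated positively with each other and negatively with zp3b. Pearson's r between log2 CPM values was 0.74 for zp2.3 with zp2.5 and with zp2l1, 0.67 for zp2l1 with zp3a.2, 0.65 for zp2.5 with zp2l1, 0.56 for zp2.3 with zp3a.2 and 0.37 for zp2.5 with zp3a.2. For zp3b, r lay between -0.55 and -0.17. The points share library, depth and stage, so these are descriptions only. The other genes most like the mean of the tested members were pacsin3 (r = 0.91), raf1a (0.91), tnfsf10 (0.90), rnaset2 (0.89) and rmnd1 (0.89), over the same 24 libraries. By rank correlation 4 of these 5 stayed among the nearest 5, and by share of nuclear counts 1 did. Of these, pacsin3 had 166 nuclear CPM in the mutant and 60.9 in wild type at 256c, and 8.22 and 10.8 at Sphere.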

How the data were processed

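The members and gene lists were chosen with earlier results of these data known. The main table holds gene counts that the authors deposited as whole numbers, with an exonic length per gene. Its headings say filtered without saying what the filter removed. The submitters' processing notes name Trimmomatic, HISAT, SAMtools, Picard, featureCounts and DESeq2, on GRCz11, with no version or settings. The authors' deposited table of comparisons, per the file headers, holds mean normalized counts (a signal), log2 fold changes, and p-values with adjusted p-values. All other tests were run on the counts here.

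One edgeR 4.0.16 fit (limma 3.58.1, R 4.3.3) held the means of the 8 IAA groups, with TMM scaling over all genes, filterByExpr, and quasi-likelihood tests adjusted over all genes by Benjamini-Hochberg. The threshold for a call was an adjusted p of 0.05. The 16 wild type libraries were fitted apart, with stage as a covariate, for IAA. Standard errors come from the quasi-F statistic and are left out for log2 changes under 0.1, and intervals are 1.96 standard errors wide on each side. Nuclear counts leave out 37 mitochondrial genes. The fit was tested on simulated data for mutant against wild type at 256c, over 14732 genes. It called 10 of 50 genes raised by a log2 change of 3, 3 of 50 lowered by as much, 2 of 50 raised by 2 and 0 of 50 lowered by as much, and 1 of 14532 unchanged genes. The planted genes were drawn at random over all levels and were few, whereas 9.48% of all genes were called in the data. The adjustment was thus stricter in the simulation, and these rates do not give the power for the members. The mean of the 4 stage differences was added after the data were seen.

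All 6 members are named. Other egg coat genes are symbols that start with zp and a digit, and zpcx, zpld1a, zpld1b, zpax1 and zpax4. The 5 most alike genes had the highest Pearson's r with the mean standardized log2 CPM (prior count 2) of the tested members, clone names left out. From the oocyte list, the 4 called genes with the largest changes are named per genotype.

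Replicate numbers come from the titles. Deviations from group means of same-numbered mutant and wild type libraries correlated above 0.1 in every pair only at Oblong (0.198, 0.190 and 0.112). Within a genotype, every pair did so between Oblong and Sphere (0.468 to 0.780 in wild type, 0.511 to 0.670 in the mutant) and between 256c and 1024c in wild type (0.173 to 0.277). A fit with the replicate number as a block shared by both genotypes was an alternative, and a block within each genotype was not fitted. The pairs of replicates differed by 9.34 to 229 in chi-square per degree of freedom, so none was counted as a repeat. DESeq2 1.42.0, RLE and total count scaling, leaving out mitochondrial genes, no filter, fits of 1 stage alone and leaving out each library were further alternatives.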

Additional observations from a re-analysis of the deposited data

How the results depend on the processing

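Over the alternatives tried, the numbers of members called at each stage between genotypes stayed within 1.5 times the reported ones except when a library was left out. Leaving out 1 library gave 0 to 1 called members at 256c and at 1024c. It gave 0 to 2 for wild type Oblong to Sphere and 0 to 3 for wild type 256c to Sphere. For mutant 256c to Sphere it gave 3 to 5, and for the mean of the 4 stages 1 to 2. The libraries concerned are named beside each gene, except for that mean and for the 5 calls in the mutant. The share of all genes called in each of these fits is not given. For wild type 256c to Sphere, RLE scaling called 1 member (zp2.3, lower) and total count scaling 1 (zp3b, higher). For mutant 256c to Sphere, total count scaling called 1 (zp3b, higher). For the IAA comparison, total count scaling called 4, with zp3b reversed at 2.61. In wild type 256c to Sphere it reversed the called fall of zp2.3, to 0.10, and the uncalled changes of zp3a.2 and zp2.5. The median of all genes moved under the same scaling, as given above. With all counts as the denominator, the summed shares became 2.96, 5.11 and 7.10 CPM in wild type at 256c, 1024c and Oblong, 11.1, 15.9, 9.86 and 10.2 in the mutant in stage order, and 19.9 and 44.7 in the wild type libraries without IAA at 256c and 1024c. With the replicate number as a block shared by both genotypes, no member's call changed: 1 member was called at 256c (zp2l1, adjusted p = 0.0332), 1 at 1024c (zp3a.2, 0.00338), 0 at Oblong and Sphere, 2 for wild type 256c to Sphere and 4 for the mutant. A pairing of stages within each genotype was not fitted, so its effect on the calls is not known. Over all genes the number of calls moved by over 1.5 times in several comparisons. At 1024c, Oblong and Sphere there were 500, 250 and 162 calls between genotypes without the block, 831, 499 and 280 with it and 884, 555 and 285 in DESeq2. From 256c to 1024c in wild type, 493 calls became 845 with the block, 1115 in DESeq2, 908 without mitochondrial genes and 1586 with total count scaling. From Oblong to Sphere 0 calls became 332 in wild type and 335 in the mutant in DESeq2, and 2180 and 10 with total count scaling. The 2 interaction calls became 181 with the block, 470 in DESeq2, 11 without mitochondrial genes and 458 with total count scaling. The 4 calls for IAA became 558 in DESeq2 and 8518 with total count scaling. Low counts limit what can be seen: 3 counts, the limit that a count of 0 allows, came to between 0.728 and 18.6 nuclear CPM in the IAA libraries.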

Other observations

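The genes next to zp3b and zp3e on the same strand were read as values, chosen after those of zp3b and zp3e were seen. Upstream of zp3b, at a gap of 4082 bases, gng5, a G protein gamma subunit gene, held 14 counts over the 3 wild type libraries at 256c and 180 at Sphere, and 1027 and 559 in the mutant. Upstream of zp3e, at a gap of 240 bases, ddx42, an RNA helicase gene, held 25 counts at 256c and 1043 at Sphere in wild type, and 44 and 911 in the mutant. Upstream of zp2.2, at a gap of 3495 bases, actr10 held 65 counts at 256c and 68 at Sphere in wild type, and 124 and 76 in the mutant. Upstream of zp2.3 lies zp2.2 itself, with 8 and 7 counts in wild type and 21 and 16 in the mutant. The nearest upstream genes of zp2l1, zp3a.2 and zp2.5 had at most 2 counts over the 3 libraries of any group. Whether counts of zp3b or zp3e hold reads from their neighbours was not tested.

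The follicle cell markers, a list of 12 genes of the cells that surround the oocyte, had 6 to 49 counts summed per IAA library. The largest totals over the 28 libraries were those of cyp11a1 with 307 counts, gsdf with 81 and lhcgr with 59, while cyp19a1a, fshr, inha and amh had 3 or fewer. Of the liver list, tfa had 2006 counts over the 28 libraries, 730 of them in wild type at Sphere. Liver transcripts of vtg1, vtg2 and vtg5, the yolk protein genes, totalled 16, 1 and 2 counts. The 8 enveloping layer genes held 118 to 9749 nuclear CPM in the IAA libraries.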
